A study of Homo sapiens with 32 samples.

Results

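The ends of the human autosomes, taken as all bins of 10 kb that lie within 2 Mb of the start or end of chromosomes 1 to 22, were described by their coverage with H3K27me3 islands. On the 5 acrocentric chromosomes (13, 14, 15, 21 and 22) only the long-arm end was used, which gave 39 ends and 7800 bins of the 287509 bins of chromosomes 1 to 22. The other 279709 bins are called the interior. The cells were MDA-MB-231, an established line of triple-negative breast cancer. All groups were the same line: control cells, cells given an EZH2 inhibitor (named EPZ in the treatment label and EP7 in the titles), cells given a p38 MAP kinase inhibitor (P38i), and cells given both (combo), with a treatment of 24 h. Each group had 4 H3K27me3 libraries made by ChIPmentation, in which the immunoprecipitated chromatin is tagged with sequencing adapters by a transposase while still on the beads. The labels do not say whether the 4 libraries of a group came from separate cultures, so p-values measure only how these libraries vary, which may be technical variation.

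H3K27me3 is the trimethylated lysine of histone H3 that marks Polycomb-repressed chromatin, and EZH2 is the methyltransferase that writes it. Human chromosomes end in arrays of the repeat TTAGGG, and the sequence next to them holds duplicated segments, families of olfactory receptor and zinc finger genes, and, on many arms, dense clusters of genes with CG-rich promoters. The p38 MAP kinase is a stress-activated kinase that has been linked to phosphorylation of EZH2.

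The ends hold promoters rich and poor in CG dinucleotides, and the promoters under islands in all libraries were mainly of the second kind, as in the interior. The 4 promoters printed here are those of ZNF595, a zinc finger gene near the tip of 4p, and LOC124904779, an uncharacterised gene on 19q, both more often under an island in libraries with the EZH2 inhibitor; of B3GAT1 on 11q, a glucuronyltransferase gene whose body gained islands while its promoter had none; and of CETN1, a centrin gene of the male germ line on 18p that was under an island in all 16 libraries. They are RefSeq sequences of GRCh38.p14, from 250 bases before to 50 bases after the gene start, 5′ to 3′ on the strand of the gene, with every CG in capitals. ZNF595 is chr4:53071-53370 on the plus strand, LOC124904779 is chr19:56863912-56864211 on the plus strand, B3GAT1 is chr11:134412193-134412492 on the minus strand and CETN1 is chr18:580130-580429 on the plus strand.
ZNF595: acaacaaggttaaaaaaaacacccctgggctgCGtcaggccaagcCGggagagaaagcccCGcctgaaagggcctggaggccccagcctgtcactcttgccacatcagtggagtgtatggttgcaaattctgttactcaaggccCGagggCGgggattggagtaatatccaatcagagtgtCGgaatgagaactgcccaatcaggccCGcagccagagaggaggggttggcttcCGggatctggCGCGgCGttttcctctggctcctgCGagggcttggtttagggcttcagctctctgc
LOC124904779: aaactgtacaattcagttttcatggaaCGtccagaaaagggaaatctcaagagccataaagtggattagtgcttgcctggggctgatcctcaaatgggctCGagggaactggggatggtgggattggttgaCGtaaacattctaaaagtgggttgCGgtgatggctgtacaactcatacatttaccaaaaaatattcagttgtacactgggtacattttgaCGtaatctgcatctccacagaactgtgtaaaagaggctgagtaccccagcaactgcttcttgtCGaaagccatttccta
B3GAT1: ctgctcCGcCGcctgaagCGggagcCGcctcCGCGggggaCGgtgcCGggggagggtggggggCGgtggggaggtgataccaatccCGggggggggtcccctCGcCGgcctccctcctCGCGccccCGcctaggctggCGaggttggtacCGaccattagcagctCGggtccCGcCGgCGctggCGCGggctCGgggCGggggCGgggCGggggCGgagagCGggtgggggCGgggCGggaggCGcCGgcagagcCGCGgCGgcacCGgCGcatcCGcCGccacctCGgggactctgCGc
CETN1: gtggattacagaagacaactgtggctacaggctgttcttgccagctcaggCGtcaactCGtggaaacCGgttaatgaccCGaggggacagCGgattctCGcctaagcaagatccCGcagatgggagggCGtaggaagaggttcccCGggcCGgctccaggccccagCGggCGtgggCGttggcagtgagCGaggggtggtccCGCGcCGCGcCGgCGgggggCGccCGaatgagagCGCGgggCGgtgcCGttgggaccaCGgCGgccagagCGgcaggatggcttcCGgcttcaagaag

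The number of CG dinucleotides was 12 in the ZNF595 promoter, 6 in that of LOC124904779, 42 in that of B3GAT1 and 30 in that of CETN1. The ZNF595 promoter was at least 50% covered in 6 of the 8 libraries with the EZH2 inhibitor and in 1 of the 8 without it. For LOC124904779 the counts were 5 of 8 and 0 of 8. Of the 1357 protein-coding genes that lie wholly within the ends, 948 matched the promoter table, with 1268 promoters. The median promoter there held 30 CG, against 21 over all 21156 promoters of chromosomes 1 to 22. The 18 promoters at the ends that were covered in all 16 libraries had a median of 4 CG, and the 1168 that were covered in none had a median of 32. The interior had the same split, with medians of 2 CG for its 524 and 23 CG for its 17104 such promoters. CETN1 had the most CG of the 18 at the ends, and 7 of the 18 lay on chromosome 20, 5 of these being the beta-defensin genes DEFB125 to DEFB129. On average 4.27% of the promoters at the ends were covered, against 7.77% in the interior. With the EZH2 inhibitor the share at the ends was 4.39 ± 0.421% (SD, n = 8) and without it 4.16 ± 0.518% (n = 8), a difference within the spread between libraries (2-sided exact permutation test, p = 0.368). The motif TTAGGG, searched on both strands, occurred in 80 of the 1268 promoters (6.31%) and in 8.92% of all promoters of the same length, and of the 4 printed promoters it occurred in that of ZNF595.

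The deposited lists give the bounds of islands and no score or read count, so the depth behind each value is unknown and no interval from counts can be given. Each value is the percent of sequence under islands, so it reports the extent of called islands and says nothing of how strong the mark is within them. The lists differed in length: a library covered between 462 and 656 Mb of chromosomes 1 to 22, with between 51255 and 82320 islands. Between 9.42 and 14 Mb of this lay at the ends.

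A smaller share of the ends than of the interior lay under islands in all 16 libraries. In the control libraries, 17.5, 14.1, 13.3 and 12.1% of the ends were covered, against 22.8, 21.1, 20 and 16.6% of the interior. In the EPZ libraries the ends stood at 13.8, 14, 16.7 and 16.0% and the interior at 16.1, 16.5, 19.2 and 20%. In the P38i libraries the ends stood at 16.5, 16.5, 17.9 and 14.1% and the interior at 22.1, 21.3, 23.0 and 18.2%. In the combo libraries the values were 15.7, 14.4, 17.9 and 17.8% at the ends and 17.9, 18.1, 20.9 and 19.9% in the interior. The ends were lower in 16 of 16 libraries, by a mean of 4.06 ± 1.59 percentage points (SD, n = 16), with a 2-sided exact sign-flip permutation p of 3.05e-05, the smallest that 16 libraries can give. All libraries share 1 cell line and 1 genome, so this test measures the spread between libraries only. The result depends on the distance: with ends of 1 Mb they were lower in 16 of 16 libraries (mean difference −4.38 points), while with ends of 5 Mb they were lower in 10 and higher in 6 (mean difference −0.143 ± 1.65 points, exact sign-flip permutation p = 0.733).

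**Figure D1:**
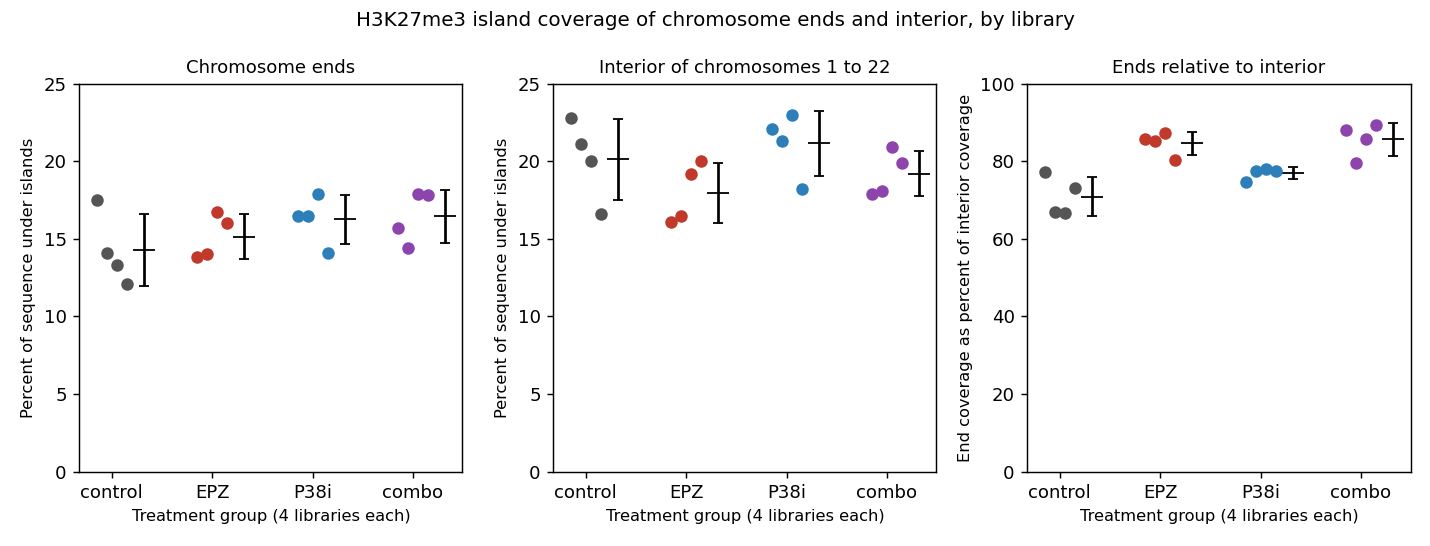
Percent of sequence under H3K27me3 islands at the chromosome ends (left) and in the interior (middle), and end coverage as a percent of interior coverage (right), 1 point per library, with the group mean and SD in black beside the 4 points of each group. On the right the 8 libraries with the EZH2 inhibitor (EPZ and combo) lie between 79.5 and 89.3%, above the 8 without it, which lie between 66.7 and 78.0%.

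Coverage of the ends did not differ between the groups by more than the spread between libraries. Mean coverage of the ends was 14.3 ± 2.33% in control, 15.2 ± 1.45% in EPZ, 16.2 ± 1.58% in P38i and 16.5 ± 1.69% in combo (SD, n = 4 each). The 8 libraries with the EZH2 inhibitor, EPZ and combo together, had 15.8 ± 1.62% and the 8 without it 15.3 ± 2.12%. The ranges overlapped, and the difference of 0.552 points did not exceed the spread (2-sided exact permutation test over 12870 arrangements, p = 0.56, Benjamini-Hochberg adjusted p = 0.667 over 7 comparisons). The 8 libraries with the p38 inhibitor, P38i and combo together, had 16.4% and the 8 without it 14.7%, a difference of 1.63 points with p = 0.0726 in the exact permutation test (adjusted p = 0.5). None of the 7 comparisons of end coverage passed the adjustment. When each list was shortened to the same covered length, keeping its widest islands, the ends were 2.49 points higher with the EZH2 inhibitor (exact permutation p = 0.000155, adjusted p = 0.00109), so this comparison depends on whether the length of the lists counts as part of the outcome. With the total made equal, less coverage in the interior means more at the ends. This value is therefore not separate from ends minus interior, which was −2.87 points with and −5.42 without the inhibitor in this setting.

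The gap between ends and interior was smaller with the EZH2 inhibitor. Ends minus interior was −5.84 ± 1.2 points in control, −2.78 ± 0.755 in EPZ, −4.88 ± 0.619 in P38i and −2.75 ± 0.759 in combo (SD, n = 4 each). The 8 libraries with the inhibitor lay between −3.91 and −2.12 points and the 8 without it between −7.02 and −4.1, with no overlap. The means differed by 2.6 points, −2.76 ± 0.701 against −5.36 ± 1.02, with an exact permutation p of 0.000155, the smallest that 8 against 8 can give (adjusted p = 0.00109 over 7 comparisons). EPZ exceeded control by 3.07 points, combo exceeded control by 3.1 and combo exceeded P38i by 2.14, each with p = 0.0286, the smallest that 4 against 4 libraries allows in the exact permutation test, and each with an adjusted p of 0.05, which is at the threshold. P38i and control differed by 0.962 points (exact permutation p = 0.257, adjusted p = 0.36), and combo and EPZ by 0.0315 points (exact permutation p = 1). With the p38 inhibitor the gap was 0.497 points smaller over both backgrounds (exact permutation p = 0.545, adjusted p = 0.635). The interior stood at 18.6 ± 1.71% with the EZH2 inhibitor and 20.6 ± 2.25% without it, a difference of −2.05 points, against 0.552 points at the ends.

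The change in the gap was not detected against the sequence just inside the ends. Coverage was lowest in the last 0.1 Mb, at 10.2 ± 1.11% with the EZH2 inhibitor and 9.15 ± 1.4% without it (SD, n = 8 each), lay between 14.3 and 17.5% in both sets of libraries up to 2 Mb, and reached 22.9 ± 2.25% with and 22.1 ± 2.92% without the inhibitor from 2 to 3 Mb. Coverage with the inhibitor, as a percent of that without it, was 112% in the last 0.1 Mb, 104% from 1.5 to 2 Mb, 104% from 2 to 3 Mb, 100% from 3 to 5 Mb, 98.4% from 5 to 10 Mb, 93.9% from 10 to 20 Mb, 90.7% from 20 to 40 Mb and 85.1% beyond 40 Mb. In the farthest band the difference was −3.07 points with an exact permutation p of 0.0129 (adjusted p = 0.142), and none of the 11 bands passed the adjustment on its own. With only the sequence from 2 to 10 Mb as the interior, ends minus interior was −7.56 points with the inhibitor and −8.22 without it, and the ranges overlapped (difference 0.663, exact permutation p = 0.0839, adjusted p = 0.4).

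**Figure D2:**
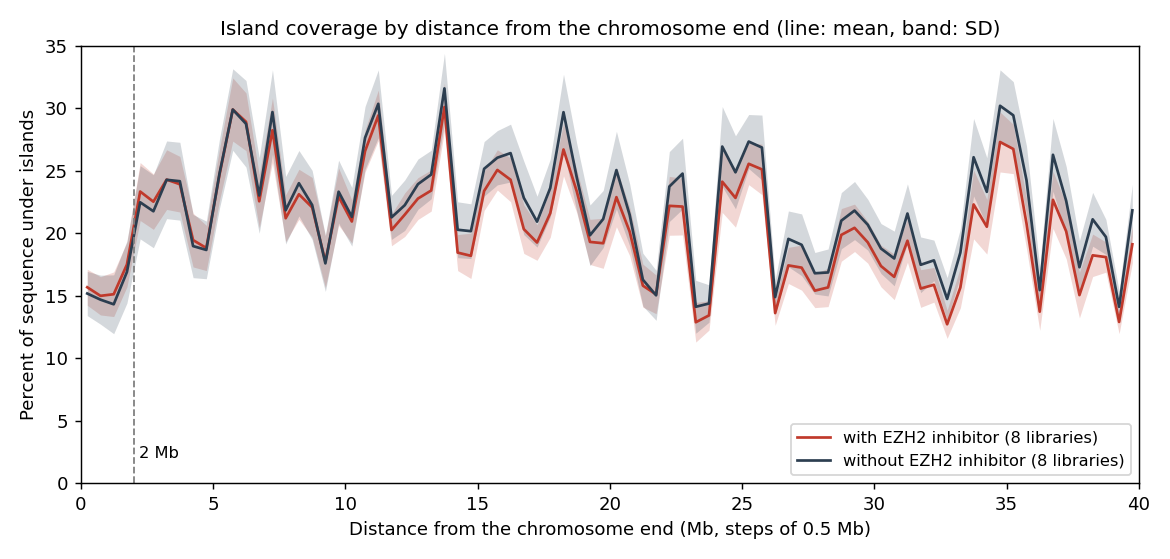
Percent of sequence under islands (vertical axis) against the distance from the chromosome end in steps of 0.5 Mb (horizontal axis), as the mean (line) and SD (band) of the 8 libraries with and the 8 libraries without the EZH2 inhibitor. The lines lie close together up to about 10 Mb and the line with the inhibitor runs lower farther in, where its mean is 18.8% against 20.7% from 20 to 40 Mb.

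The ends held more protein-coding genes than the interior, and their lower coverage was seen in the bins with such genes. Other kinds of gene were not counted here. At the ends 37.8% of the bins held no protein-coding gene, 52.9% held 1 and 9.31% held 2 or more, against 54.1, 43.0 and 2.87% in the interior. In bins without a gene the ends were covered at 23.8% and the interior at 21.8%, and the ends were higher in 14 of 16 libraries, by 1.94 ± 1.88 points (exact sign-flip permutation p = 0.00156). In bins with 1 gene the order was turned, with 11.8% at the ends and 17.6% in the interior, a difference of −5.78 ± 1.53 points, lower in 16 of 16 libraries (exact sign-flip permutation p = 3.05e-05). In bins with 2 or more genes the ends had 3.18% and the interior 7.31% (difference −4.13 ± 0.736 points), again lower in 16 of 16. Ends minus interior was higher with the EZH2 inhibitor in both kinds of bin. In bins with a gene it was −5.22 points with and −7.65 without the inhibitor, with no overlap of the libraries, so the shortfall of the ends was smaller by 2.42 points. In bins without a gene it was 3.36 points with and 0.527 without the inhibitor, with overlap, so the excess of the ends was larger by 2.83 points (exact permutation p = 0.000311). Assembly gaps were not removed from the bins. Leaving out stretches of 1 Mb with no island moved ends minus interior, over all bins, to −5.42 points with and −8.52 without the inhibitor. This was not repeated for bins without a gene, so the higher value of the ends there may depend on such stretches.

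Most bins at the ends were either free of islands or part of stable domains. No library had an island in 4966 of the 7800 bins (63.7%, interior 58.5%), and 527 bins (6.76%, interior 9.5%) were at least 50% covered in all 16 libraries. The median width of the islands was 4.93 ± 0.96 kb at the ends and 5.45 ± 1.18 kb in the interior (SD, n = 16), and there were 21.3 ± 2.91 per Mb at the ends and 22.4 ± 3.1 in the interior. The widest island at an end measured between 71.6 and 133 kb in the 16 libraries.

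The 39 ends ranged from nearly bare to more than 50% covered. The mean over the 16 libraries was under 1% at 7 ends, from 1 to 10% at 15, from 10 to 30% at 10 and over 30% at 7, with a median of 8.85%. The 5 highest were 18p at 57.7%, 11q at 51.8%, 20p at 48.3%, 9p at 41.9% and 7q at 37.4%, and the top 9 ends held 60.1% of the covered length. The 5 lowest were 16p at 0.0438%, 18q at 0.0909%, 1p at 0.16%, 16q at 0.328% and 17p at 0.421%. Chromosome 18 thus had both the most covered end and the second least covered one. At 18p the 4 controls stood at 60.4, 59.7, 55.6 and 50.4%, EPZ at 53.9, 56.0, 59.9 and 60.9%, P38i at 58.8, 59.6, 61.4 and 56.1%, and combo at 54.7, 52.1, 63.9 and 60.1%, so all 4 groups overlapped. An end held between 3 and 112 protein-coding genes (median 29), and across the 39 ends the number of genes and the mean coverage had a Spearman rho of −0.51 and a Pearson r of −0.452, given as a description since the ends share the same libraries.

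**Figure D3:**
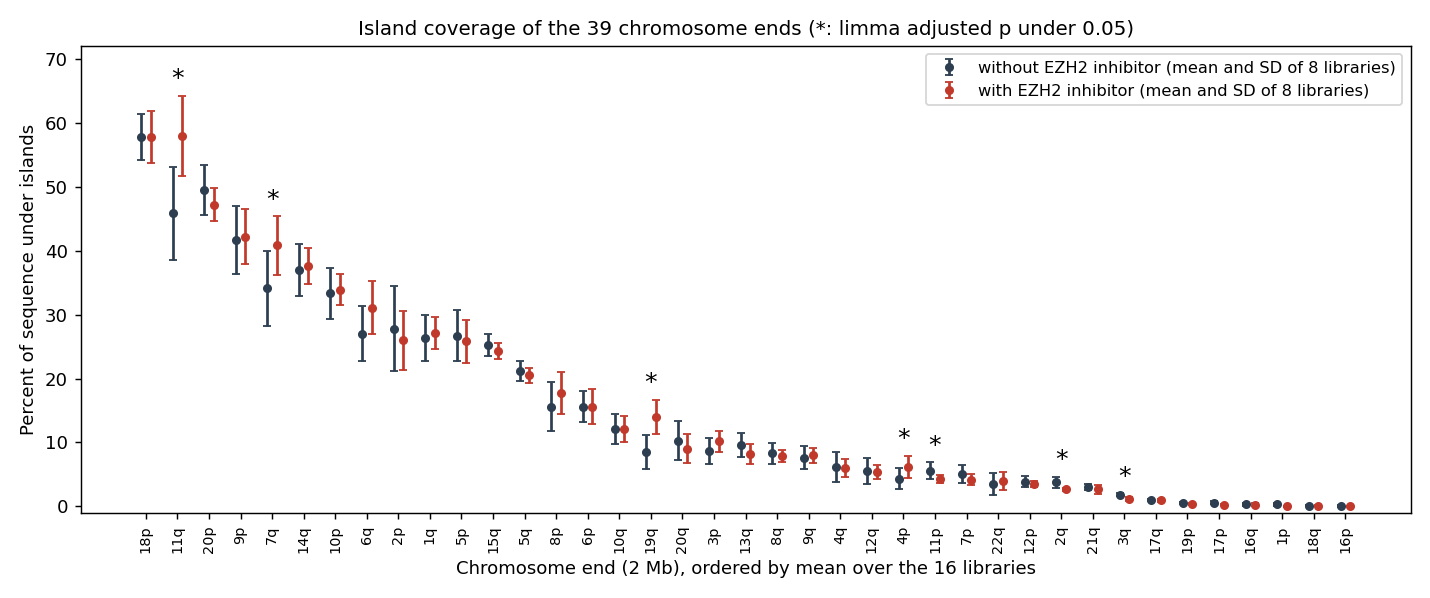
Percent of sequence under islands (vertical axis) at each of the 39 ends (horizontal axis, ordered by the mean over the 16 libraries), as mean and SD of the 8 libraries with and the 8 without the EZH2 inhibitor, with an asterisk where the adjusted p from limma was under 0.05. The order runs from 18p at 57.7% to 16p at 0.0438%, and the asterisks at 11q, 7q, 19q and 4p mark higher values and those at 11p, 2q and 3q lower values with the inhibitor.

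With the EZH2 inhibitor 4 ends rose and 3 fell. Of the 39 ends 32 had a mean coverage of at least 1% and were tested in a limma fit over all 1226 windows of 2 Mb that passed this filter. Among all windows 37.7% passed a Benjamini-Hochberg adjusted p of 0.05 in this comparison, 3.51% as higher and 34.2% as lower. Among the 32 ends the median difference was −0.0714 points and 40.6% had a higher mean with the inhibitor, and among all windows the median was −1.8 points and 14.2% were higher. At each of the 7 ends the ranges with and without the inhibitor overlapped. With the covered length of each library as a covariate 17 ends were called, 15 higher and 2 lower, and with lists of equal length 17 of 31 were called, all of them higher. Over all windows these settings called 46.6% (240 higher and 331 lower of 1226) and 33.1% (180 higher and 208 lower of 1171). The median difference among the ends was then 1.44 and 2.19 points, against −0.234 and −0.161 points among all windows.

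The largest rise was at 11q, whose last 2 Mb hold part of OPCML (a cell adhesion gene of the nervous system) and B3GAT1. The controls stood at 57.3, 42.2, 39.7 and 34.9%, EPZ at 50.6, 52.3, 59.5 and 56.8%, P38i at 47.8, 50.6, 51.2 and 43.0%, and combo at 60.4, 51.2, 64.6 and 67.4%. Control replicate 1 lay among the treated libraries, and the other 7 libraries without the inhibitor did not exceed 51.2%. The means were 57.9 ± 6.26% with and 45.8 ± 7.21% without the inhibitor (difference 12 points, SE 3.01, limma adjusted p = 0.00775). Coverage was higher with the inhibitor in 143 of the 160 tested bins of this end (89.4%), against 31.6% of all tested bins. The median difference at this end was 12.8 points, so the rise was spread over the end rather than placed at 1 site.

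At 7q, where the gene PTPRN2 (a receptor-type phosphatase of secretory granules) fills much of the last 2 Mb, the controls stood at 40.6, 28.0, 26.3 and 28.7%, EPZ at 37.4, 36.4, 43.9 and 37.9%, P38i at 35.9, 38.5, 41.2 and 33.3%, and combo at 41.7, 35.8, 46.7 and 46.7%. Controls 2 to 4 were the lowest 3 libraries. The means were 40.8 ± 4.54% and 34.1 ± 5.89% (difference 6.74 points, SE 2.26, limma adjusted p = 0.0288), and 103 of 130 tested bins were higher (79.2%, all tested bins 31.6%). PTPRN2 itself had 49.8 ± 6.34% with and 38.5 ± 8.27% without the inhibitor, with a limma adjusted p of 0.0531 over all genes.

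**Figure D4:**
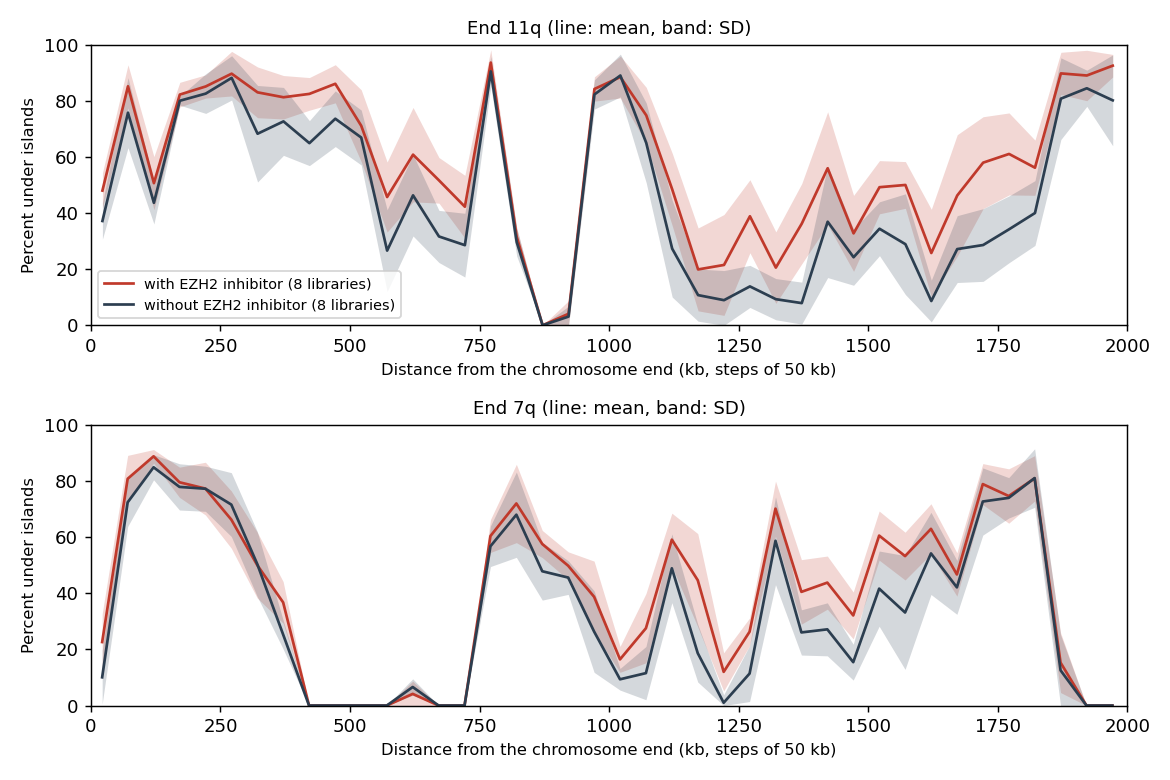
Percent of sequence under islands (vertical axes) against the distance from the chromosome end in steps of 50 kb (horizontal axes) at 11q (top) and 7q (bottom), as mean (line) and SD (band) of the 8 libraries with and the 8 without the EZH2 inhibitor. The line with the inhibitor runs above the other over most covered stretches of 11q, where 143 of 160 tested bins were higher, and over the inner part of 7q.

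At 19q, which carries a cluster of zinc finger genes, the controls stood at 12, 6.62, 4.84 and 5.32%, EPZ at 11.4, 11.8, 17.1 and 13.7%, P38i at 10.4, 9.83, 10.4 and 8.87%, and combo at 13.4, 11.5, 14.7 and 18.7%. Again control replicate 1 reached the treated libraries and the other controls did not. The means were 14 ± 2.69% and 8.53 ± 2.63% (difference 5.5 points, SE 1.23, limma adjusted p = 0.00528), and 62 of 70 tested bins were higher (88.6%, all tested bins 31.6%). At 4p the controls stood at 5.27, 2.98, 2.79 and 2.08%, EPZ at 3.81, 3.87, 7.97 and 6.53%, P38i at 4.92, 7.08, 5.19 and 4.37%, and combo at 6.12, 5.69, 8.06 and 7.66%. The combo libraries at 4p all lay above all controls, as in 1.14% of all tested windows. With the inhibitor the mean at 4p was 6.21 ± 1.7% and without it 4.34 ± 1.64% (difference 1.88 points, SE 0.697, limma adjusted p = 0.0453).

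The 3 ends that fell were thinly covered. At 2q the mean was 2.66% with and 3.76% without the EZH2 inhibitor (limma adjusted p = 0.00675), at 3q 1.15% and 1.85% (limma adjusted p = 0.00865), and at 11p 4.24% and 5.61% (limma adjusted p = 0.0265). At 3q the controls stood at 1.55, 1.86, 1.69 and 1.85%, EPZ at 1.29, 0.581, 1.38 and 0.682%, P38i at 1.9, 1.84, 1.84 and 2.24%, and combo at 1.27, 1.56, 1.37 and 1.01%, so among the 8 libraries with the EZH2 inhibitor only combo replicate 2 passed the lowest control.

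In the comparisons of single groups fewer ends were called. EPZ against control called 19q as higher (limma adjusted p = 0.0448), with 8.48% of all windows called. Combo against control called 11q, 19q, 7q and 4p as higher (limma adjusted p from 0.0354 to 0.0469), with 4.81% of all windows called. Combo against P38i called none of the ends, with 0.408% of all windows called. At an unadjusted p under 0.05 limma called 6 of the 32 ends in it, and 364 of all 1226 windows. These calls rested on single libraries: the count of ends ran from 0 to 2 for EPZ and from 0 to 5 for combo when 1 library was left out, and from 5 to 7 for the EZH2 inhibitor over both backgrounds. The call for EPZ was lost without control replicate 2 or 3, EPZ replicate 1, 2 or 3, P38i replicate 1, 2 or 3, or combo replicate 1 or 3. All 4 calls for combo were lost without control replicate 2 or 3, P38i replicate 2, or combo replicate 1, 3 or 4. Limma called no window of chromosomes 1 to 22 for P38i against control, for combo against EPZ or for the p38 inhibitor over both backgrounds. At an unadjusted p under 0.05 it called 8, 0 and 11 of the 32 ends, and 120, 21 and 192 of all 1226 windows. In P38i against control, 32 of the 32 tested ends had a higher mean in P38i than in control, with a median difference of 2.25 points, against 78.1% and 0.979 points over all windows. Control libraries are shared by these comparisons.

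Single bins were called at few places. In simulated data the fit of bins recovered 2% of changes of 30 points and 73% of changes of 60 points. Bins that were not called may therefore still have changed. Of the 7800 bins 2145 had a mean coverage from 5 to 95% and were tested in a limma fit over 87730 bins of chromosomes 1 to 22, 206 lay above 95% and 5449 below 5%. For the EZH2 inhibitor 14 bins at the ends rose and 2 fell. Over all bins 1.22% were called, 0.0957% as higher and 1.13% as lower. The median difference was 1.25 points among the tested bins at the ends and −5.5 points among all bins. With covered length as a covariate these medians were 6.12 and −0.0305 points, with 13 bins higher and 15 lower among all bins, against 84 and 988 without it. With lists of equal length they were 9.25 and −0.25 points, with no bin called. The bins that rose lay on 11q (5), 4p (2), 6q (2), 3p, 7q, 9p, 14q and 19q, and those that fell on 3q and 13q. Limma called none of the bins at the ends for EPZ or P38i against control, for combo against EPZ or for the p38 inhibitor over both backgrounds. After adjustment these comparisons called 0.00342, 0.0, 0.00114 and 0.00228% of all bins. At an unadjusted p under 0.05 limma called 164, 121, 105 and 154 of the 2145. Over all 87730 bins the unadjusted counts were 11092, 4695, 5342 and 5945. The counts for the EZH2 inhibitor depended on single libraries, with 2 to 23 called bins when 1 library was left out, and 1 with covered length as a covariate. The fewest were 2 without control replicate 2, 3 without control replicate 3 or P38i replicate 1, 4 without P38i replicate 3, 5 without P38i replicate 2, 6 without combo replicate 4, 7 without combo replicate 1, and 10 without EPZ replicate 1 or 2.

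The clearest bin was chr11:133340001-133350000 within OPCML. It was listed at 0 in all 4 controls and all 4 P38i libraries, at 70, 64.0, 70 and 34.0% in EPZ, and at 78.0, 100, 92.0 and 66.0% in combo. The groups with and without the EZH2 inhibitor did not overlap, at 71.8 ± 19.9% against 0 (limma adjusted p = 0.00228, n = 8 each). Over all bins 0.0205% were higher without overlap. The same bin was the only one at the ends called in combo against control (limma adjusted p = 0.0328, 0.0114% of all bins called) and in combo against P38i (limma adjusted p = 0.0492, 0.00228% of all bins called). The call for combo against control was lost without control replicate 1, 2 or 3, P38i replicate 1, or combo replicate 1, 2 or 4, and that for combo against P38i without any 1 of 15 libraries, all but EPZ replicate 4. The other bin without overlap was chr3:1730001-1740000, which held the ribosomal pseudogene RPL23AP39, at 30.8 ± 9.38% with the inhibitor and 0 in all 8 libraries without it (limma adjusted p = 0.0282). Where a group is at 0 in all its libraries the shared estimate of the spread may be too small for it.

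Further called regions overlapped between the groups. The longest was 20 kb at chr4:50001-70000, over the start of ZNF595, at 79.4 ± 32.7% with and 13.6 ± 32.9% without the EZH2 inhibitor (limma adjusted p from 0.0265 to 0.0339 over 2 bins). It was listed at 0 in all controls and stood at 94.0% in P38i replicate 2. At chr11:133500001-133510000, also in OPCML, the means were 58.5 ± 31.2% and 4.5 ± 9.9% (limma adjusted p = 0.0173). At chr14:105780001-105790000, within the immunoglobulin heavy chain locus IGH, they were 77.0 ± 21.3% and 24.0 ± 21.1% (limma adjusted p = 0.0298). The 2 bins that fell were chr13:112630001-112640000, at 23.5 ± 36.0% with and 80.5 ± 14.6% without the inhibitor (limma adjusted p = 0.0275), and chr3:198110001-198120000, at 32.2 ± 26.5% and 83.5 ± 15.8% (limma adjusted p = 0.0332). The latter holds the pseudogenes FRG2FP and TUBB8P8, which belong to families with near-identical copies at other ends, so reads may have been split between copies and this value is uncertain.

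Most protein-coding genes at the ends had no island. Of the 1357 genes, each taken with 2.5 kb on both sides, 1063 (78.3%, interior 67.2%) were uncovered in all 16 libraries and 70 (5.16%, interior 11.2%) had a mean of at least 50%. The 170 with a mean from 5 to 95% were tested among 3968 genes, while 1177 lay below and 10 above. With the EZH2 inhibitor 6 genes at the ends rose and 1 fell. Without control replicate 4 the count of calls was 15, 6 higher and 9 lower, against 33 higher and 873 lower of all 3956 genes. With all 16 libraries 16.9% of all tested genes were called, 0.907% as higher and 16.0% as lower. The median difference was −0.226 points among the 170 and −4.82 points among all tested genes, and 48.8% and 21.8% had a higher mean. With covered length as a covariate the medians were 3.07 and −1.19 points, so that of the ends turned in sign. This setting called 9 genes at the ends, all higher, and 126 higher and 254 lower over all genes, against 36 and 636 without the covariate.

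Of the 6 genes that rose 4 were zinc finger genes, a family of DNA-binding proteins that includes many repressors. ZNF595 (chr4:53321-88208) on 4p was at 0 in all 4 controls, at 0, 37.6, 45.1 and 45.1% in EPZ, at 0, 45.1, 0 and 5.47% in P38i, and at 43.1, 45.1, 45.1 and 45.1% in combo. The repeated value of 45.1% shows an island of the same extent, present in 6 libraries. The difference with the EZH2 inhibitor was 31.9 points (SE 7.18, limma adjusted p = 0.00952). Its neighbour ZNF732 (chr4:270675-305474) stood at 12.6, 0, 10.6 and 0% in control, 24.6, 25.1, 40.2 and 24.1% in EPZ, 11.6, 8.04, 14.1 and 0% in P38i, and 13.5, 0, 54.3 and 32.7% in combo, so the combo libraries spanned the whole range (difference 19.7 points, limma adjusted p = 0.0428). Both genes are also counted among the duplicated families of the ends, where 2 of 3 tested genes rose, and near-identical copies make their values uncertain. On 19q ZSCAN18 (chr19:58083842-58118426) had 25.3 ± 10.2% with and 7.93 ± 7.81% without the inhibitor (limma adjusted p = 0.0202), and ZIM2 (chr19:56774547-56840726), an imprinted zinc finger gene outside the list by its symbol, had 31.0 ± 10.7% and 12.6 ± 8.04% (limma adjusted p = 0.0179).

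In the list of zinc finger genes, chosen by symbol, 83 lay at the ends, 61 of them uncovered in all libraries. Of the 9 that were tested 3 rose with the EZH2 inhibitor and none fell, with a median difference of 11.7 points. The most covered were ZNF773 with 54.1% and ZSCAN4 with 52.8%, then ZNF135 with 23.1% and ZNF595 with 22.3%, as means of the 16 libraries. In the interior 14 of 75 tested zinc finger genes rose and 5 fell, with a median of 2.26 points, so rises in this family were seen on both sides of the 2 Mb limit.

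The other genes that rose were LOC124904779 on 19q and B3GAT1 on 11q. LOC124904779 (chr19:56864162-56870571) was at 0 in all controls, at 13.5, 22.3, 36.3 and 22.3% in EPZ, at 2.97, 0, 0 and 0% in P38i and at 0, 34.5, 24.0 and 0% in combo (difference with the inhibitor 18.7 points, SE 4.66, limma adjusted p = 0.0151). B3GAT1 (chr11:134378504-134412242) was at 9.66, 0, 0 and 0% in control, 16.5, 13.4, 22.6 and 2.58% in EPZ, 0, 0, 3.46 and 0% in P38i, and 10.3, 8.26, 22.6 and 34.4% in combo (difference 14.7 points, SE 3.71, limma adjusted p = 0.0165). Its CG-rich promoter printed above was covered in none of the 16 libraries. The gene that fell was RSPO4 (chr20:958452-1002311) on 20p, which encodes a secreted activator of Wnt signalling. RSPO4 stood at 91.4, 78.2, 71.7 and 71.6% in control, 66.7, 59.9, 70.8 and 67.6% in EPZ, 74.6, 82.3, 93.5 and 77.0% in P38i, and 69.2, 55.7, 75.3 and 71.6% in combo (difference −12.9 points, SE 4.01, limma adjusted p = 0.0409). All EPZ libraries of RSPO4 lay below all controls, as in 7.99% of all tested genes. No gene at the ends was called lower for the EZH2 inhibitor with covered length as a covariate or with a replicate block. The same held without control replicate 1 or 2, EPZ replicate 2, P38i replicate 2 or 3, or combo replicate 1 or 2.

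**Figure D5:**
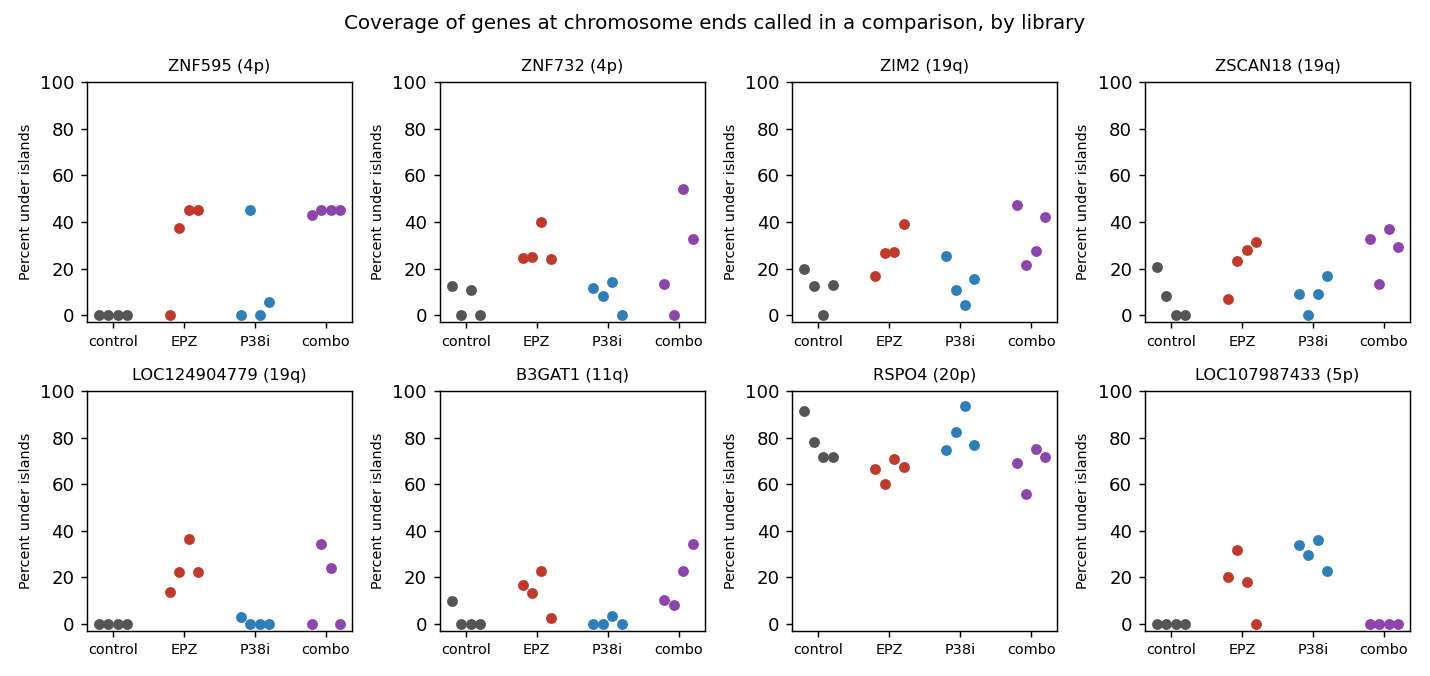
Percent of each gene with 2.5 kb on both sides under islands (vertical axes) in the 4 libraries of each treatment group (horizontal axes), 1 point per library, for the 7 genes called for the EZH2 inhibitor and for LOC107987433, called for P38i against control. ZNF595 repeats the value of 45.1% in 6 libraries, and LOC107987433 is at 0 in all control and all combo libraries.

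The p38 inhibitor was followed by 1 call among genes at the ends. LOC107987433 on 5p (chr5:1285397-1289245), a predicted gene that lies inside TERT (chr5:1253167-1295068, the gene of the telomerase catalytic subunit), was at 0 in all 4 controls, at 33.9, 29.4, 36.2 and 22.6% in P38i, at 20.3, 31.6, 18.1 and 0% in EPZ, and at 0 in all 4 combo libraries. P38i exceeded control by 30.5 points (limma adjusted p = 0.0164, 0.302% of all genes called), and combo was 30.5 points below P38i (difference −30.5, limma adjusted p = 0.00683, 2.14% of all genes called). The effect of both inhibitors together differed from the sum of their single effects by −48.0 points (limma interaction, adjusted p = 0.0198, 0.0504% of all genes called). As control and combo were at 0 in all libraries, the shared estimate of the spread may be too small for them. Over its whole length TERT had a mean of 4.1% and was not tested. Among the libraries of TERT control stood at 9.81, 0, 0 and 0%, EPZ at 7.68, 5.97, 3.41 and 0%, P38i at 6.4, 15.8, 6.82 and 9.81%, and combo at 0 in all 4. The call for P38i was lost when P38i replicate 3 was left out, and the interaction was no longer called without control replicate 2, EPZ replicate 1 or 3, P38i replicate 1, or combo replicate 2 or 3.

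In the remaining comparisons few genes passed. ZNF595 was the only gene at the ends called in combo against control (limma adjusted p = 0.0407, 1.71% of all genes called), and this call was lost without control replicate 2 or 3, EPZ replicate 2, or any 1 of the 4 combo libraries. EPZ against control called none at the ends (3.43% of all genes), the nearest being LOC124904779 with a limma adjusted p of 0.0599. Combo against EPZ called no gene of chromosomes 1 to 22. Over both backgrounds the p38 inhibitor called none at the ends (0.126% of all genes), the nearest being LSP1 on 11p with a limma adjusted p of 0.196. At an unadjusted p under 0.05 limma called 17, 6 and 13 of the 170 genes in these 3 comparisons. Over all 3968 tested genes the unadjusted counts were 834, 217 and 537.

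Gene families at the ends differed in their level of islands, whatever the treatment. Olfactory receptor genes, which are active in single sensory neurons, had 57 members at the ends, 17 of them at least 50% covered and 14 uncovered, with a mean of 30.5% against 65.1% in the interior. The highest were OR2Y1 at 100%, OR4F15 at 99.4%, OR4F6 at 97.3% and OR2C3 at 94.6%. None of the 28 tested receptor genes at the ends was called for the EZH2 inhibitor (median 1.05 points), while in the interior 2 of 179 rose and 20 fell (median −5.7 points). The 6 beta-defensin genes at the ends, which encode antimicrobial peptides of epithelia, were all at least 50% covered, with a mean of 90.7% against 33.6% in the interior. DEFB126 stood at 100%, DEFB125 at 99.3%, DEFB128 at 99.0% and DEFB129 at 96.3%. The 3 DMRT genes on 9p, transcription factors of sex determination, had 81.9% (DMRT1), 77.2% (DMRT3) and 63.3% (DMRT2), and none was called.

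Developmental transcription factors were mostly bare at the ends, with 11 of 17 uncovered, but their mean of 12.5% exceeded the 4.85% of the interior. At least 50% covered were 2 of the 17 at the ends and 1 of 39 in the interior. The 2 at the ends were the lymphoid regulator IRF4 with 83.8% and the embryonic homeobox gene DUXA with 83.5%. MYT1 with 42.1% and IRX4 with 1.53% followed. None of the 3 that were tested was called. Of 32 neuronal and synaptic genes 10 were uncovered and 6 at least 50% covered, among them VIPR2 with 71.7% and ADARB2 with 70.1%, and none of the 14 that were tested was called. The most covered members of that list were not neuronal by their known roles: DOCK8 (85.7%) is an exchange factor of immune cells, DMRT1 acts in sex determination and SYCE1 (71.7%) in meiosis. CACNA1B, a calcium channel of synapses, had 52.7%. The 20 genes of duplicated families had 14 uncovered members and a mean of 9.02%. The 5 globin genes, all on 16p, and the 5 mucin genes, on 11p and 12q, were uncovered in all libraries, against interior means of 78.1 and 29.8%. Of the telomere genes RTEL1 was uncovered. Of 23 housekeeping genes 21 were uncovered, and the highest was ADAP1 with 3.24%, which is known as a gene of neurons rather than a housekeeping gene.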

How the data were processed

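H3K27me3 ChIPmentation was read from 16 libraries, 4 in each of 4 groups set by the labels' treatment, and the 16 IgG libraries of the series are not analysed here. Per the labels the authors deposited 1 list of islands per library on build hg38, and the values used are the start and end of each island, with no count, score or other unit. Per the submitters' processing notes, the tools were SICER, an island caller, Bowtie2 2.3.4.1, SAMtools 1.2, Picard, bedtools 2.28.0, cutadapt, Trim Galore and FastQC. How SICER was set is not given in the sources used here. Island bounds fell on windows of 200 bp, so a thinner or deeper library can change which windows were called.

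The percent of each bin of 10 kb, each window of 2 Mb and each protein-coding gene of the RefSeq table of GRCh38.p14 (with 2.5 kb on each side) under islands was computed. The bins at the ends were checked against bedtools 2.31.1 in 3 libraries (largest difference 0). A window was set at each end used, and the sequence between was tiled from its start, leaving out some short last pieces. No genome sequence was used, so assembly gaps were not removed. Values per library were compared with 2-sided exact permutation tests, adjusted by the Benjamini-Hochberg method over 7 comparisons. Bins and genes with a mean of 5 to 95% and windows with a mean of at least 1% entered a limma fit (version 3.58.1 in R 4.3.3, with trend and robust set) over all 16 libraries, adjusted over all features tested, threshold 0.05. The fits were tested on simulated data, with 100 known changes of each size for the EZH2 inhibitor over both backgrounds. The simulated noise was independent between features, without the differences in list length, and changes were placed only in features of intermediate mean coverage. Recovery and false calls may therefore differ in the real data. For bins 2% of changes of 30 points and 73% of 60 points were recovered, with 0 false calls. For genes these shares were 80 and 99%, with 20 false calls. For windows 93% of changes of 9 points and 100% of 18 points were recovered, with 9 false calls. Coverage, permutation tests and plots were made in Python 3.11.15 with scipy 1.17.1, pandas 2.3.3, numpy 2.4.6 and matplotlib 3.10.9.

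The members and gene lists were chosen with earlier results of these data known. Genes named were, in each comparison, up to 8 per direction with the largest difference among those called, or otherwise those with the largest moderated t, and up to 4 members of each list with the highest mean coverage. Ends named were to be up to 5 per direction whose groups did not overlap, or otherwise the 3 with the largest moderated t, plus the 5 highest and 5 lowest. Regions named were the 4 longest per direction. All 7 ends called for the EZH2 inhibitor and the bin at 3p were named as well, after their values were seen. Alternatives were lists of equal length, covered length as a covariate, islands of at least 1 kb, no filter, no flank, other distances (1 and 5 Mb), a replicate block and leaving out each library, and 6 were added after seeing the data.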

Additional observations from a re-analysis of the deposited data

Results flagged for a closer look

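In 48 checks of single libraries against their own group of 4, a library far from the other 3 was found 4 times, and chance gives about 1 in 20. EPZ replicate 4 had an ends-minus-interior value of −3.91 points, with the other 3 between −2.44 and −2.33. At 9p P38i replicate 4 had 36.7%, with the others between 43.5 and 44.8%. At 11p combo replicate 2 had 3.21%, with the others between 4.75 and 4.92%. At 3q P38i replicate 4 had 2.24%, with the others between 1.84 and 1.9%. P38i replicate 4 appears in 2 of these, and it also had the shortest list of its group, covering 520 Mb of chromosomes 1 to 22.

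For LOC107987433 on 5p the inhibitors did not add up: either agent alone was followed by islands in 3 or 4 of 4 libraries, and both together by none, with an interaction of −48.0 points in limma (adjusted p = 0.0198, 0.0504% of all genes called). The call was lost without control replicate 2, EPZ replicate 1 or 3, P38i replicate 1, or combo replicate 2 or 3. Control and combo were at 0 in all libraries, and the shared estimate of the spread may be too small for them.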

How the results depend on the processing

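Ends minus interior kept its direction for the EZH2 inhibitor in every alternative run, and leaving out 1 library moved its difference from 2.36 to 2.78 points. It passed the adjusted threshold in all of them except the replicate block and the interior limited to 2 to 10 Mb. Leaving out 1 library moved EPZ against control from 2.68 to 3.52 points, combo against control from 2.71 to 3.55 and combo against P38i from 1.9 to 2.46. The adjusted p then exceeded 0.05 for EPZ without EPZ replicate 1, 2 or 3, for combo without combo replicate 1, 3 or 4, and for combo against P38i without P38i replicate 1, 2 or 3 or combo replicate 1, 3 or 4. Against the interior from 2 to 10 Mb, chosen after seeing the data, the differences were 0.663 for the EZH2 inhibitor, 0.858 for EPZ, 0.234 for combo and 0.467 for combo against P38i, none past the threshold. In bins without a gene the differences of EPZ, combo and combo against P38i were 3.44, 3.96 and 2.23 points, and without the 4 ends called higher 2.37, 2.2 and 1.46, each above the adjusted threshold. With lists of equal length the total is the same in each library, so end coverage follows ends minus interior and is no separate result. The ends were then higher by 2.91 points in EPZ and 2.98 in combo against control. The differences were 2.06 points in combo against P38i and 2.49 for the EZH2 inhibitor.

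Replicate numbers did not pair the libraries: the deviations of libraries with the same number correlated from −0.0899 to 0.123 over 24 pairs of libraries, 1 of them over 0.1. With the number as a replicate block the differences in ends minus interior were the same, 3.07, 3.1, 2.14 and 2.6 points, with exact permutation p-values of 0.125 for the first 3, the smallest that 4 pairs allow, and 0.00781 for the EZH2 inhibitor (adjusted p = 0.0547). Under the block limma called 0 bins at the ends in combo against control and in combo against P38i, and 0 ends in EPZ and in combo against control.

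Counts of calls at the ends moved with the settings. For the EZH2 inhibitor bins fell from 16 to 1 with covered length as a covariate and to 0 with lists of equal length. With the covariate 363 of the 2145 tested bins at the ends were under an unadjusted p of 0.05 in limma. Over all bins it was 12149 of 87730. Called bins at the ends ran from 2 to 23 when 1 library was left out. Ends called for the EZH2 inhibitor rose to 17 with the covariate and to 17 with equal lists (5 to 7 leaving out 1 library), for EPZ to 15 and 13 (0 to 2), for combo to 16 and 15 (0 to 5) and for combo against P38i to 13 and 9 (0 to 3). Calls rose over all windows as well in the comparisons of single groups, to 32.1 and 20.3% for EPZ, 46.2 and 33.3% for combo and 27.9 and 11.4% for combo against P38i, and for the EZH2 inhibitor the share was 46.6 and 33.1%. Genes called for the EZH2 inhibitor ran from 5 to 15, the highest without control replicate 4. Without a filter bins numbered 1 in EPZ, 1 in P38i, 2 in combo and 3 in combo against P38i. Over all 118969 bins 5 were called higher and 46 lower in EPZ, and 13 and 6 in P38i. The counts were 20 and 20 in combo, and 15 and 17 in combo against P38i. Bins in combo against control were 0 with equal lists, and bins in combo against P38i were 0 with the covariate, with islands of at least 1 kb and with equal lists. Leaving out 1 library gave 0 to 3 bins in EPZ, and 0 to 1 in combo and in combo against P38i. The 3 bins came without EPZ replicate 4, where 12 of all 87358 tested bins were higher and 179 lower. For genes, leaving out 1 library gave 0 to 2 in EPZ and 0 to 1 in P38i, in combo and in combo against EPZ. In combo against P38i it gave 1 to 2. Over all 3956 genes tested without control replicate 4, EPZ called 7 higher and 404 lower. With no flank 1 gene was called in EPZ and 0 in combo. Over all 3675 genes these settings called 4 higher and 112 lower in EPZ, and 7 and 36 in combo. With the covariate 5 genes were called in combo (2.94%), against 8.9% of all genes. The cause of these moves was not tested. Of 669 values recomputed 538 kept their direction and side of the threshold, and 131 moved, weakened or became stronger. Read depth is unknown, so islands missed in thin libraries cannot be told apart from sites without the mark.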

Other observations

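The share of all islands that lay at the ends was 2.67 ± 0.0921% with the EZH2 inhibitor (SD, n = 8) and 2.5 ± 0.184% without it, with an exact permutation p of 0.049 and an adjusted p of 0.173 over 7 quantities. The number of islands per Mb of the ends was 22.6 ± 2.18 with and 20 ± 3.1 without the inhibitor (exact permutation p = 0.0743, adjusted p = 0.173).

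At 6q, which was not called as an end, 84 of 116 tested bins were higher with the EZH2 inhibitor (72.4%), and 2 were called. Over all tested bins 31.6% were higher. At chr6:169850001-169860000 the means were 74.8 ± 21% with and 29.8 ± 18.5% without it (limma adjusted p = 0.0489), and at chr6:170090001-170100000 they were 51.8 ± 18.2% and 8.5 ± 8.6% (limma adjusted p = 0.0285). At 20p, 28 of 86 tested bins were higher (32.6%), near the share over all tested bins. At chr9:1590001-1600000 the EPZ libraries stood at 36.0, 78.0, 34.0 and 70% and the combo libraries at 16.0, 24.0, 14 and 0%, with 0 in all control and P38i libraries (limma adjusted p = 0.0354 for the EZH2 inhibitor). These bins were named after their values were seen.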
